A study of Mus musculus with 48 samples.

Results

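The 10 genes Lct, Dsp, Wfs1, Trhr, Grp, Nr2f2, Dcn, Ccn3, Gpc3 and Efnb2 are used as markers of position along the long axis of the hippocampus, and they were taken by symbol from the 56748 genes of the deposited count table. Each symbol matched a gene, and all 10 passed the filter on low counts in each of the 13 comparisons as fitted here. Messenger RNA had been sequenced from dissected dorsal hippocampus, ventral hippocampus, medial prefrontal cortex and cerebellum of 16-week-old mice of both sexes. Libraries labelled KO came from 129/Sv-Cyp2e1tm1Gonz/J mice, a line with a targeted Cyp2e1 gene, and libraries labelled WT came from 129S1/SvImJ mice. Each combination of region, label and sex had 3 libraries, called biological replicates in the series' design, which gave 12 libraries per region and 24 from the hippocampus.

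The dorsal hippocampus is best known for its part in spatial memory, while the ventral hippocampus connects with the amygdala and hypothalamus and is known for its part in emotional behaviour. Neurons of the same named field, such as CA1 pyramidal cells or dentate granule cells, use different genes at the dorsal and the ventral end, and many of these genes change gradually along the axis. Wfs1 is known as a marker of dorsal CA1, Lct of dorsal dentate granule cells and Trhr of ventral dentate granule cells. Dcn and Grp are known for expression in ventral pyramidal cells, and Nr2f2 is a regulator of the ventral and caudal telencephalon. In tissue pieces, a lower level of a transcript can come from fewer cells that hold it or from less of it per cell, and the counts cannot tell these apart.

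Depth ran from 14.56 M to 25.86 M counts in a library, where M stands for mega, and the median was 16.57 M. Cyp2e1, the targeted gene, had 34 to 111 counts in libraries labelled KO and 0 to 8 counts in libraries labelled WT. The targeted line thus had the higher counts, and the cause was not tested. Each library is named here by its label only. Levels are given as CPM (counts per mega-count of the library total, scaled by TMM factors over all 48 libraries). A list of 8 cerebellar granule cell genes stood more than 1 log2 unit above its region's median in 5 hippocampal libraries. These were the male KO replicate 1 library of the dorsal hippocampus, and in the ventral hippocampus the female KO replicate 1, male KO replicate 3, male WT replicate 1 and male WT replicate 2 libraries. The dorsal-ventral changes of the 10 genes were therefore also computed without these 5.

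Both hippocampal libraries of male KO replicate 1 stood apart from the others of their labelled region in several of the genes studied here. For Trhr both stayed on the side of their label. The log2 changes, dorsal over ventral, of Trhr (-1.15 to -1.17), Gpc3 (-0.52 to -0.51) and Efnb2 (-0.19 to -0.21) hardly moved without them. The library labelled dorsal had the lowest Lct (1.81 CPM) and Dsp (6.48 CPM) and the highest Ccn3 (180 CPM), Nr2f2 (31.9 CPM) and Dcn (35.2 CPM) of the 12 dorsal libraries. The library labelled ventral had the highest Lct (9.81 CPM) and the lowest Nr2f2 (17.5 CPM) and Dcn (15.3 CPM) of the 12 ventral libraries. The same held for genes outside the 10. The mean log2 level of 6 medial habenula genes was 1.52 in the dorsal library, against 2.00 to 4.75 in the other 11, and 2.19 in the ventral library, against 1.25 to 1.94 in the other 11. For Spink8 and Fibcd1, genes of dorsal CA1, the mean log2 level was 2.34 in the dorsal library, where the other 11 had 3.43 to 4.12, and 3.68 in the ventral library, where the other 11 had 1.60 to 3.39. Results are given with both libraries and, where marked, without them. This removal was chosen after seeing the values and by its construction favours a larger difference.

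**Figure D1:**
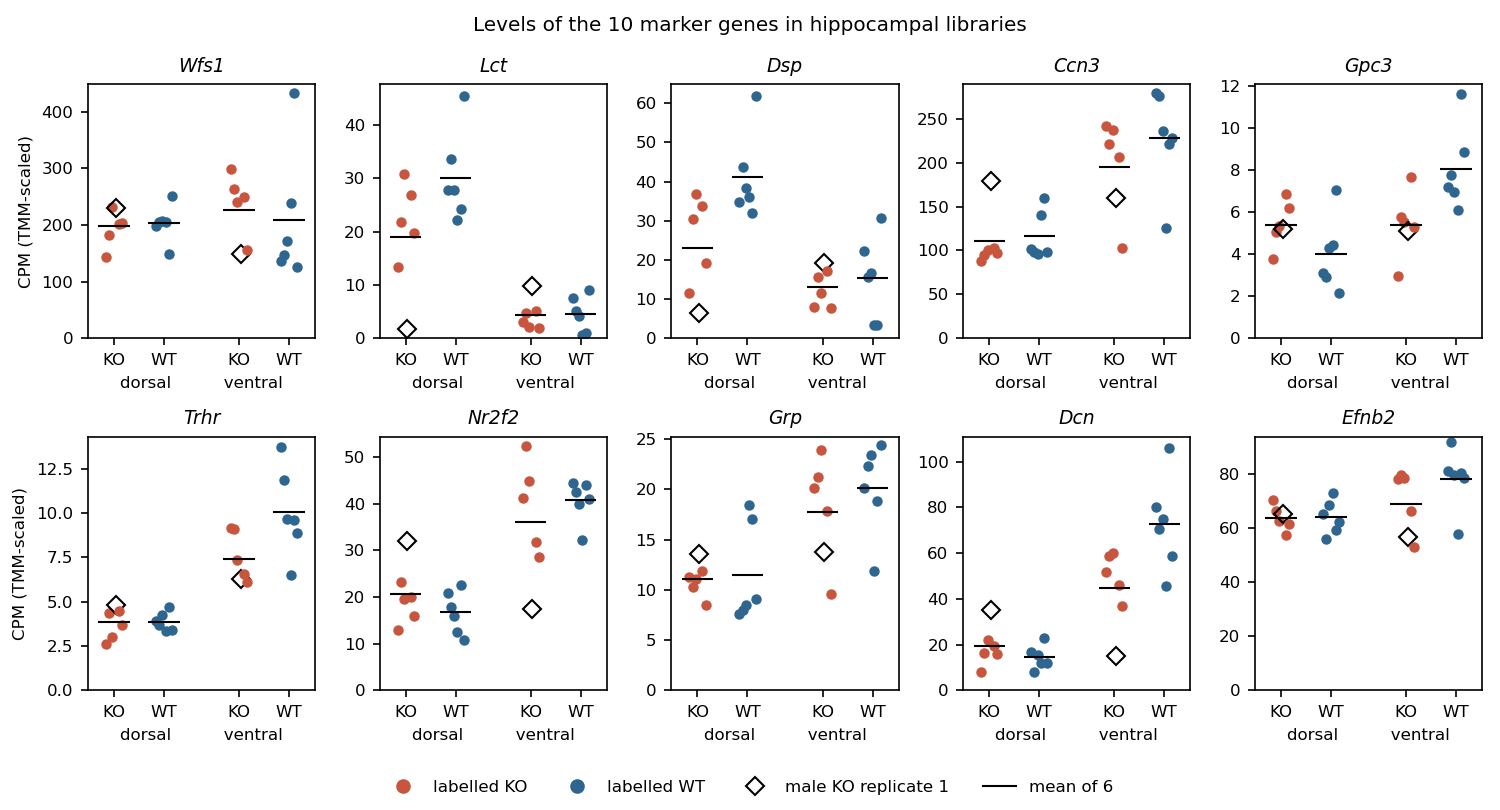
Levels of the 10 genes in each hippocampal library, in CPM on a linear axis that starts at 0, with dorsal libraries left of ventral ones and libraries labelled KO left of those labelled WT. Points are libraries, bars are means of 6 libraries, and open diamonds mark male KO replicate 1, whose dorsal library was the lowest of its region for Lct and whose ventral library was the lowest of its region for Dcn.

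Of the 10 genes, 9 differed between dorsal and ventral hippocampus (edgeR's quasi-likelihood test over 24 libraries, Benjamini-Hochberg adjusted p under 0.05), where 17.4% of all 18184 genes tested did. The 10 genes and the lists used below were chosen with earlier results of these data known. Their shares set beside those of all genes, here and below, therefore cannot test that choice. Lct and Dsp were higher in the dorsal hippocampus, as were 9.4% of all genes tested. The other 7, Trhr, Grp, Nr2f2, Dcn, Ccn3, Gpc3 and Efnb2, were lower in the dorsal hippocampus, as were 8.01% of all genes. Wfs1 was not called. The median log2 change of the 10 genes was -0.64, while that of all genes tested was -0.02. The groups of 12 libraries did not overlap for Trhr, and they overlapped for the other 9, where 0.055% of all genes tested did not overlap. Without male KO replicate 1, the same 9 genes were called, where 24.1% of all 18559 genes tested were, with 13% higher and 11.1% lower in the dorsal hippocampus. The groups of 11 then did not overlap for Lct, Trhr, Nr2f2 and Dcn, where 1.37% of all genes did not. Cerebellar genes moved with that removal too. Of 8 granule cell genes 4 were then called lower in the dorsal hippocampus (median log2 change -0.94), and of 6 Purkinje cell genes 5 (median -1.89), and their part in the changes of the 10 genes was not tested.

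Lct (ENSMUSG00000026354, mm39 chromosome 1, 128212493 to 128256055, minus strand) encodes lactase, the enzyme that splits milk sugar at the intestinal brush border. Its level in the dorsal hippocampus ran from 1.81 to 45.3 CPM with a median of 25.5, against 0.706 to 9.81 CPM with a median of 4.50 in the ventral hippocampus. The dorsal libraries other than male KO replicate 1 held at least 13.4 CPM, above each of the 12 ventral libraries. Lct was 5.37-fold higher in the dorsal hippocampus (log2 change 2.43, SE 0.38, adjusted p = 0.000266), and the log2 change was 2.73 (SE 0.31) without male KO replicate 1. The lowest ventral value rests on 11 counts, so the precision at that end is limited by counting.

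Dsp (ENSMUSG00000054889, chromosome 13, 38335270 to 38382553, plus strand) encodes desmoplakin, which ties the desmosome, a cell-cell junction, to intermediate filaments. It ran from 6.48 to 61.9 CPM with a median of 34.2 in the dorsal hippocampus, against 3.39 to 30.8 CPM with a median of 15.6 in the ventral hippocampus. These ranges overlapped widely, since 3 dorsal libraries labelled KO lay below 20 CPM and the male WT replicate 3 ventral library reached 30.8 CPM. Dsp had a log2 change of 1.11 (SE 0.32, adjusted p = 0.0204), and 1.28 (SE 0.31, adjusted p = 0.00556) without male KO replicate 1. The call was lost when the male KO replicate 2 dorsal library was left out (log2 change 0.94, adjusted p = 0.0515).

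Lct and Dsp also varied together within groups. Their deviations from the group means correlated at r = 0.92 over 24 libraries (0.94 over 22, without male KO replicate 1), the highest of the 45 pairs of the 10 genes. This is a description over libraries that share dissection and depth. The sequences before the start sites of these genes, and of Nr2f2 for comparison, are shown so that the upstream letters of this pair can be compared. They come from RefSeq on GRCm38.p6, whose promoter table held 6 of the 10 genes, and run 5′ to 3′ on the gene's strand over the 250 bases before the annotated start. Capitals mark GGGCGG, the GC box, or its reverse complement CCGCCC. The Lct window is chr1:128328319-128328568 (minus strand), the Dsp window chr13:38151044-38151293 (plus strand) and the Nr2f2 window chr7:70366747-70366996 (minus strand).
Lct: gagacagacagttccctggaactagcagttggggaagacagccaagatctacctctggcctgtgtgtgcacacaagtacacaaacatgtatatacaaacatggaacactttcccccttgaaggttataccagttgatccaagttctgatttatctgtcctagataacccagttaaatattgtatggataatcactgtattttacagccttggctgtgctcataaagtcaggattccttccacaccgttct
Dsp: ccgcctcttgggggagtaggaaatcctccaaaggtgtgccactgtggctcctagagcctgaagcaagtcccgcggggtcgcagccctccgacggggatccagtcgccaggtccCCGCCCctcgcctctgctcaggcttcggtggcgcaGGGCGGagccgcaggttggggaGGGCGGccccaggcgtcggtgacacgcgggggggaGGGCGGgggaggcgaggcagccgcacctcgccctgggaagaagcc
Nr2f2: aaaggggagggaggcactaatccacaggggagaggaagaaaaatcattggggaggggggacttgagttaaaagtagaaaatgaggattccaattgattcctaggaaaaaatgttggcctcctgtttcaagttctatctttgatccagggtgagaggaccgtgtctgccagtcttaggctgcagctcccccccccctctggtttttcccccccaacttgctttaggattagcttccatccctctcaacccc
The Dsp window held 4 GC boxes at a base content of 72.4% G and C. The Lct window held none at 42.8%, and the Nr2f2 window none at 50%, while the median over all 32851 windows was 52.4%. GC boxes occurred in 32.7% of all windows of this length. Neither AGGTCA, the site bound by nuclear receptors such as NR2F2, nor TATAAA, the TATA box, occurred on either strand in these 3 windows, and they occurred in 14.0% and 12.4% of all windows. The windows of Wfs1, Gpc3 and Efnb2, not shown, held 4, 3 and 3 GC boxes at 69.6%, 71.6% and 72.0% G and C. The Efnb2 window also held 1 TATA box. A missing match says only that these letters are not in the window searched.

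Wfs1 (ENSMUSG00000039474, chromosome 5, 37123448 to 37146549, minus strand) encodes wolframin, a membrane protein of the endoplasmic reticulum. Its levels were close in both pieces, with a range of 144 to 252 CPM and a median of 204 in the dorsal hippocampus, against 126 to 433 CPM and a median of 205 in the ventral hippocampus. The SD was 31.5 CPM in the dorsal and 89.2 CPM in the ventral hippocampus, so that the ventral libraries spanned the whole dorsal range. The log2 change was -0.08 with a 95% interval of -0.38 to 0.22 (adjusted p = 0.744). Without the 5 libraries with high granule cell markers it was 0.17 (adjusted p = 0.337), so the sign depended on those libraries. The highest ventral value, 433 CPM, came from the male WT replicate 2 library, one of those 5. Within the WT label, the log2 change of Wfs1 ran from 0.0068 to 0.55 over the main and alternative fits, leave-one-out fits aside. It was called in none of them.

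Among the genes lower in the dorsal hippocampus, Trhr stood apart from the rest by its lack of overlap. Trhr (ENSMUSG00000038760, chromosome 15, 44059531 to 44099308, plus strand) encodes the receptor for thyrotropin-releasing hormone, which couples to phospholipase C. It ran from 2.64 to 4.82 CPM with a median of 3.80 in the dorsal hippocampus, against 6.10 to 13.7 CPM with a median of 9.00 in the ventral hippocampus. Every dorsal library was below every ventral one, male KO replicate 1 included. Its log2 change of -1.15 (SE 0.10, adjusted p = 1.26e-06) had the smallest SE of those above 1 in size, at 46 to 215 counts per library.

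Grp (ENSMUSG00000024517, chromosome 18) encodes gastrin-releasing peptide, a bombesin-like neuropeptide. It ran from 7.64 to 18.4 CPM with a median of 10.7 in the dorsal hippocampus, against 9.59 to 24.4 CPM with a median of 20.1 in the ventral hippocampus. Overlap came from both sides. The male WT replicate 1 and 2 dorsal libraries held 18.4 and 17.1 CPM, and the male KO replicate 3 and male WT replicate 1 ventral libraries held 9.59 and 11.9 CPM. Grp had a log2 change of -0.76 (SE 0.13, adjusted p = 0.000393).

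Nr2f2 (ENSMUSG00000030551, chromosome 7, 70001692 to 70016483, minus strand) encodes COUP-TFII, an orphan nuclear receptor. It ran from 10.8 to 31.9 CPM with a median of 18.7 in the dorsal hippocampus, against 17.5 to 52.2 CPM with a median of 41.1 in the ventral hippocampus. The groups met only through male KO replicate 1, which had the highest dorsal and the lowest ventral value. Without it the dorsal libraries ended at 23.3 CPM and the ventral ones began at 28.5 CPM. The log2 change was -1.02 (SE 0.14, adjusted p = 8.08e-05), and -1.15 (SE 0.12) without male KO replicate 1.

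Dcn (ENSMUSG00000019929, chromosome 10, 97315471 to 97354005, plus strand) encodes decorin, a small leucine-rich proteoglycan that binds collagen fibrils. It had the most negative log2 change of the 10, with 8.20 to 35.2 CPM and a median of 16.1 in the dorsal hippocampus, against 15.3 to 106 CPM and a median of 58.8 in the ventral hippocampus. As for Nr2f2, the overlap came from male KO replicate 1, and without it the dorsal libraries ended at 22.8 CPM and the ventral ones began at 36.8 CPM. Its log2 change was -1.75 (SE 0.21, adjusted p = 3.32e-05), or -1.94 (SE 0.18) without male KO replicate 1. Genes of meningeal fibroblasts, cells that also make decorin, moved the same way, with 7 of 8 lower in the dorsal hippocampus. The summed level of the 8 was 28.1 to 134 CPM in dorsal libraries and 31.4 to 304 CPM in ventral libraries, and none was at 0 in any library. Their part in the Dcn difference was not tested.

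Ccn3 (ENSMUSG00000037362, chromosome 15, 54609098 to 54617435, plus strand) encodes a secreted matrix-associated protein of the CCN family. It was among the abundant members, at 87.7 to 180 CPM with a median of 99.5 in the dorsal hippocampus, against 103 to 279 CPM with a median of 225 in the ventral hippocampus. Of the dorsal libraries, 9 lay at or below 103 CPM, and 9 of the ventral libraries lay above 200 CPM. The remaining ones, which made the overlap, were all from male mice. Its log2 change was -0.90 (SE 0.12, adjusted p = 9.09e-05).

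Gpc3 (ENSMUSG00000055653, chromosome X, 51361303 to 51702827, minus strand) encodes glypican 3, a heparan sulfate proteoglycan anchored to the cell surface. It ran from 2.13 to 7.05 CPM with a median of 4.73 in the dorsal hippocampus, against 2.95 to 11.6 CPM with a median of 6.51 in the ventral hippocampus. The ranges overlapped over most of their length. The log2 change was -0.52 (SE 0.16, adjusted p = 0.0306), and leaving out any of 6 libraries ended the call, with adjusted p between 0.0509 and 0.0622. These were the female WT replicate 1 and 2 dorsal libraries and the female KO replicate 2 and 3, male KO replicate 2 and male WT replicate 2 ventral libraries.

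Efnb2 (ENSMUSG00000001300, chromosome 8, 8667434 to 8711242, minus strand) encodes ephrin-B2, a membrane-bound ligand of EphB receptors and EphA4. It showed the smallest called change, with 55.8 to 73.0 CPM and a median of 64.0 in the dorsal hippocampus, against 53.0 to 91.8 CPM and a median of 78.5 in the ventral hippocampus. In the ventral hippocampus 8 of 12 libraries lay above the highest dorsal value, and 3 male libraries lay below 58 CPM. The log2 change was -0.19 (SE 0.06, adjusted p = 0.0225).

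**Figure D2:**
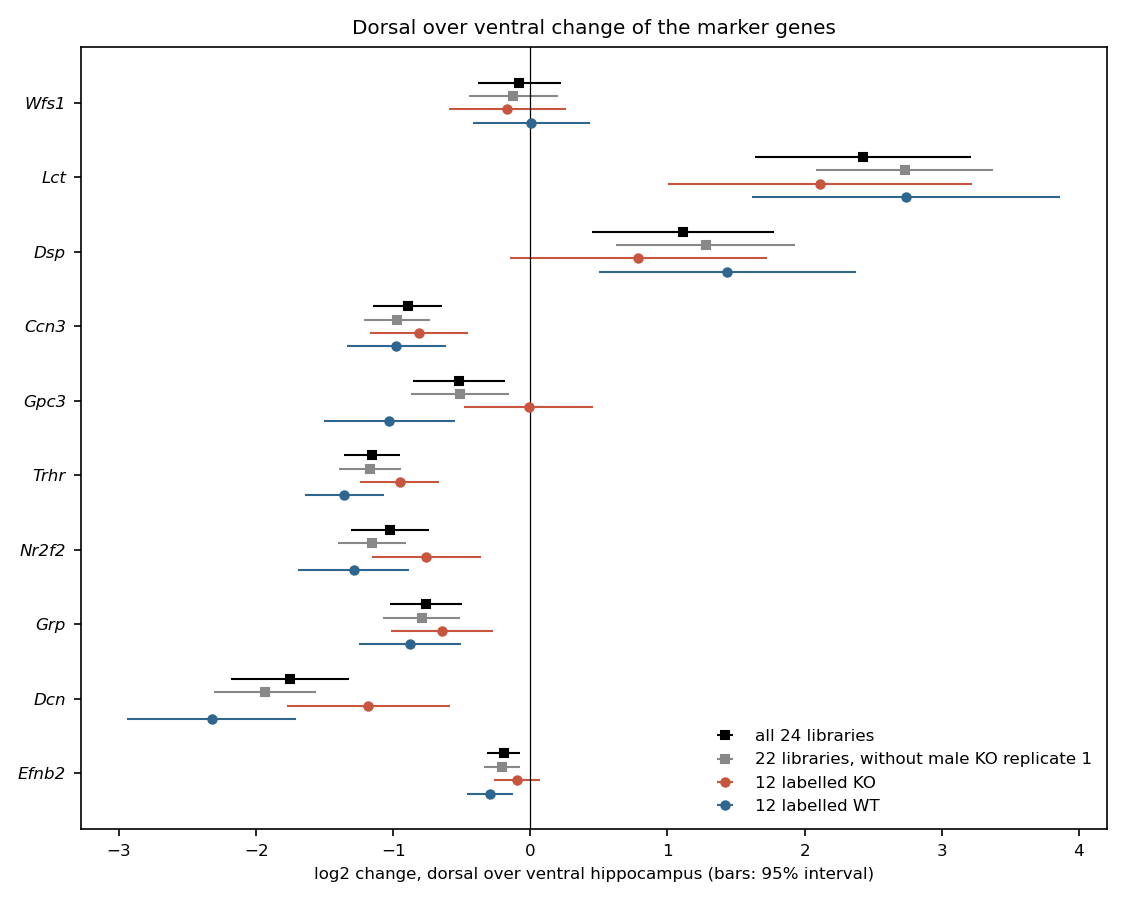
Log2 change of each gene, dorsal over ventral hippocampus, from the fit over 24 libraries (black), without male KO replicate 1 (grey), and within the libraries labelled KO (red) and WT (blue), with bars of the 95% interval. Lct and Dsp lie to the right of 0, Wfs1 lies on it, and Gpc3 and Dcn show the widest gap between the labels among the genes lower in the dorsal hippocampus.

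The levels per kb of the gene length given in the deposited table put the members in a different order at each end. In the dorsal hippocampus Wfs1 stood highest at 53.0 CPM per kb, followed by Ccn3 at 39.4, and Trhr stood lowest at 0.966. In the ventral hippocampus Ccn3 stood highest at 73.6 CPM per kb, followed by Wfs1 at 57.4, and Lct stood lowest at 0.708. Lct at 3.84 and Dsp at 3.32 CPM per kb stood in the middle of the 10 in the dorsal hippocampus.

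Relatives and partners of the 10 genes were read from lists, each called in the same fit over 24 libraries. Spink8 and Fibcd1, the other dorsal genes listed, were both higher in the dorsal hippocampus, with log2 changes of 1.13 (adjusted p = 0.00446) and 0.93 (adjusted p = 0.0155). Of 8 other ventral genes, 3 were lower in the dorsal hippocampus. These were Dlk1, an imprinted membrane protein of the Notch ligand type (log2 change -1.75), Oxtr, the oxytocin receptor (-0.73), and Nr2f1, the closest relative of Nr2f2 (-0.29). Htr2c, a serotonin receptor on the same list, went the other way with a log2 change of 0.86, and the other 4 were not called.

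Trh, the gene of the ligand of Trhr, was lower in the dorsal hippocampus, where it lay near the floor. It had 0 counts in at least 1 dorsal library, and its ventral SD exceeded its ventral mean. Its test is no separate support for the direction of Trhr. Trh was at 0.232 ± 0.208 CPM in the dorsal and 1.41 ± 1.61 CPM in the ventral hippocampus (SD, n = 12 each), with a log2 change of -2.74 (SE 0.57, adjusted p = 0.00256). Trhr2, the second receptor, was higher in the dorsal hippocampus with a log2 change of 0.67 (adjusted p = 0.0427), and Trhde, the enzyme that degrades the hormone, was not called. Of the 3 bombesin-type genes besides Grp, 1 was called. This was Nmbr, the neuromedin B receptor, at 1.35 ± 0.34 CPM in the dorsal and 3.21 ± 0.67 CPM in the ventral hippocampus, with a log2 change of -1.27. Grpr, the receptor of Grp, stayed uncalled at a log2 change of 0.39 (SE 0.21, adjusted p = 0.225).

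Of 7 small leucine-rich proteoglycan genes besides Dcn, 4 were lower in the dorsal hippocampus, the median log2 change of the 7 was -0.62, and none was higher. Fmod, Bgn and Ogn, which encode fibromodulin, biglycan and osteoglycin, had log2 changes of -1.18, -0.62 and -0.96. Ogn is also on the fibroblast list, as is Lum, which was not called. Of the 4 CCN family genes tested besides Ccn3, only Ccn2 was called, with a log2 change of -1.11 (SE 0.17, adjusted p = 0.000231). Of 5 further glypicans only Gpc4 was called, at -0.48 (adjusted p = 0.0101).

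The Eph and ephrin-B list split. Epha4, Ephb3 and Ephb1, which encode receptors, were higher in the dorsal hippocampus with log2 changes of 0.55, 0.37 and 0.21, whereas Efnb1, a ligand like Efnb2, and the receptor gene Ephb4 were lower with -0.33 and -0.37. The other 3 of the 8 were not called. Of 7 genes of desmosomes and the related plakins, Ppl (-1.15) and Dsc2 (-1.33) were lower and Evpl (0.31) higher in the dorsal hippocampus, so the list did not follow Dsp. Of 7 genes around wolframin and the stress response of the endoplasmic reticulum, Atf6 (0.28) and Cisd2 (0.17) were higher in the dorsal hippocampus and none was lower.

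Genes of hippocampal fields and of neighbouring tissue moved with the comparison too. Of 6 CA1 genes, 5 were higher in the dorsal hippocampus with a median log2 change of 0.56, led by Pou3f1 (0.75), and Spink8 and Fibcd1 are among them. Of the other fields, Amigo2 of 5 CA2 genes (0.90) and Bok of 6 CA3 genes (0.34) were higher in the dorsal hippocampus. Of 8 dentate granule cell genes only Calb1 was called, lower in the dorsal hippocampus (-0.74), and Calb1 is also a Purkinje cell gene. All 6 medial habenula genes were higher in the dorsal hippocampus, with a median log2 change of 3.12. Pou4f1, Gpr151 and Chrna3 stood out with 5.16, 4.08 and 3.14. The summed level of the 6 was 53.4 to 212 CPM in dorsal and 32.0 to 60.6 CPM in ventral libraries, and none was at 0 in every library of a region. Of 7 thalamic genes 5 were higher in the dorsal hippocampus, among them Ramp3, Slc17a6 and Plekhg1.

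Among genes of other tissues and cells, 7 of 8 fibroblast genes were lower in the dorsal hippocampus, led by Slc22a6, Igf2 and Col3a1 (log2 changes -1.13, -1.50 and -1.08). The same held for 3 of 6 vessel genes (Myh11, Acta2 and Vtn). So were Rspo2 and Cyp26b1 of 6 amygdala and piriform genes. Of 8 cerebellar granule cell genes only Cbln3 was called (-4.21, SE 1.40, adjusted p = 0.0428), and of 6 Purkinje cell genes only Calb1 (median of the 6 -1.25). The summed level of the 8 granule cell genes was 199 to 1842 CPM in dorsal and 175 to 3336 CPM in ventral libraries. Of these libraries, 1 dorsal and 4 ventral ones made up those with high granule markers. No choroid plexus gene of 6 was called. Lamp5 (0.89) was higher and Reln (-0.55) and Htr3a (-0.46) lower among 7 interneuron genes, and of 8 cortical layer genes Lamp5 and Rasgrf2 (0.34) were higher and Cux2 (-0.28) lower. What part these tissues had in the differences of the 10 genes was not tested. Without the 5 libraries with high granule markers, 9 members were called, where 18.3% of all genes were.

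**Figure D3:**
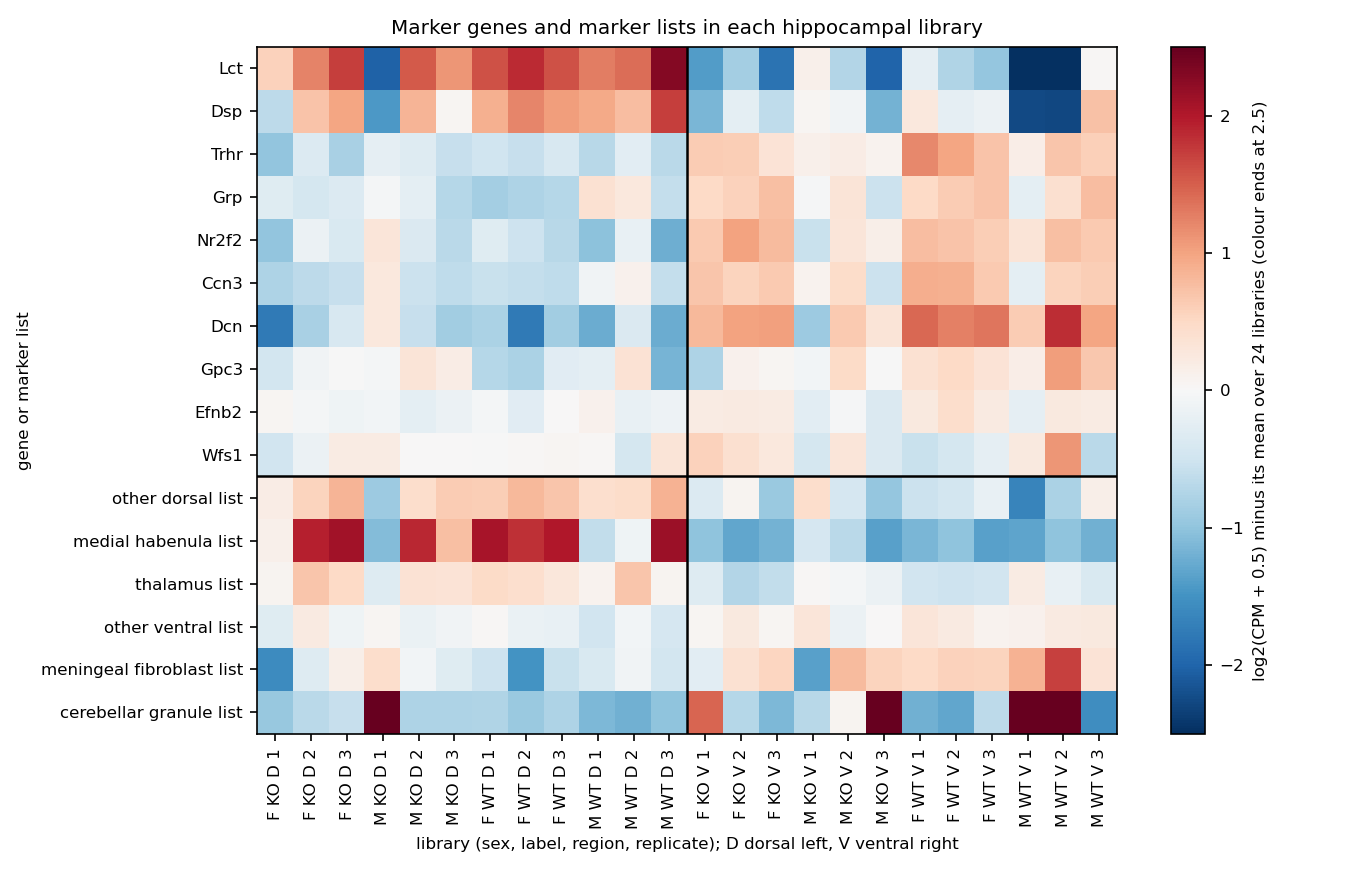
Level of each of the 10 genes (top) and mean level of 6 marker lists (bottom) in the 24 hippocampal libraries, as log2(CPM + 0.5) minus the mean over the 24, with dorsal libraries left of the vertical line and ventral libraries right of it. The column M KO D 1 is the only blue dorsal column for Lct and the lowest dorsal column for the habenula list. In the last row the reddest columns are the libraries with high cerebellar granule markers, and F KO V 1 is the palest of them.

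The dorsal-ventral difference was then read under each label. Among the 12 libraries labelled KO, 5 members were called (Lct, Trhr, Nr2f2, Dcn and Ccn3), where 2.46% of all genes were. Among the 12 labelled WT, 8 were called, all but Wfs1 and Dsp, where 8.04% of all genes were. The WT call of Efnb2 was lost with any of 7 libraries left out (adjusted p 0.0563 to 0.0875), while Dsp under WT was called with DESeq2 (0.0357) and with the libraries of all regions in the fit (0.0126). Without the male WT replicate 3 ventral library its log2 change was 2.38 (adjusted p = 0.00145). In the libraries labelled KO, Grp had a log2 change of -0.64 (adjusted p = 0.0564), Dsp 0.79 (0.386), Efnb2 -0.10 (0.566) and Gpc3 -0.01 (0.989). Dsp under the WT label had a log2 change of 1.44 (adjusted p = 0.0533). The count under the KO label moved between 1 and 6 when any 1 of the 24 libraries was left out, while calls over all genes ran from 37 to 1001. It was 6, with Grp added, without male KO replicate 1, where calls over all genes rose as well. Leaving out a library ended the KO call of Lct for 14 libraries, of Nr2f2 for 13, of Dcn for 8 and of Ccn3 for 4, and that of Trhr for none. With the libraries of all regions in the fit 3 were called, where 2.59% of all genes were. With a block for the replicate number only Trhr was called, where 0.099% of all genes were. The adjusted p with that block was 0.14 for Lct, 0.0577 for Ccn3, 0.0858 for Nr2f2 and 0.0764 for Dcn.

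The 5 members called under both labels had the same sign under each. Lct had a log2 change of 2.11 (SE 0.53) under the KO label and 2.74 (SE 0.54) under the WT label. Dcn had -1.18 (SE 0.29) under the KO label and -2.32 (SE 0.30) under the WT label. Its dorsal libraries labelled KO averaged 19.5 ± 8.98 CPM and those labelled WT 14.6 ± 5.01 CPM, and its ventral libraries averaged 44.8 ± 16.8 CPM under KO and 72.6 ± 20.5 CPM under WT (SD, n = 6 each). Gpc3 averaged 5.39 ± 1.05 CPM in dorsal and 5.39 ± 1.51 CPM in ventral libraries labelled KO, against 3.98 ± 1.74 CPM in dorsal and 8.06 ± 1.95 CPM in ventral libraries labelled WT.

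The test of the difference itself, KO label minus WT label, called none of the 10, and 0% of all genes (edgeR). The share of all genes with an unadjusted p under 0.05 was not counted. An unadjusted p under 0.05 was found for 2 of the 10, Gpc3 (difference 1.02, SE 0.32) and Dcn (1.14, SE 0.40), with an adjusted p of 1 for both, and DESeq2 called none either. The 95% interval of the difference was 0.35 to 1.69 for Gpc3 and 0.30 to 1.98 for Dcn before adjustment, and -2.18 to 0.93 for Lct. Without male KO replicate 1 the difference was 1.01 for Gpc3 and 0.76 for Dcn, both at an adjusted p of 1.

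The difference between the sexes in the dorsal-ventral contrast was tested in the same way, as female minus male. No member was called by edgeR, and 0% of all genes were, both after adjustment. Of the 10, 5 had an unadjusted p under 0.05, and the share of all genes under it was not counted. These 5 are not independent, since Ccn3 and Grp varied together within groups (r = 0.84). Ccn3 averaged 96.4 ± 5.12 CPM in dorsal and 248 ± 23.6 CPM in ventral libraries of female mice, which did not overlap. In male mice it averaged 130 ± 35.5 CPM in dorsal and 174 ± 52.5 CPM in ventral libraries, which did (SD, n = 6 each). The difference was -0.94 (SE 0.24, adjusted p = 0.131). The share of all genes without overlap within a sex was not counted. Grp followed with 9.46 ± 1.61 and 21.8 ± 1.64 CPM in dorsal and ventral libraries of female mice, and 13.1 ± 4.08 and 16.0 ± 5.38 CPM in dorsal and ventral libraries of male mice (difference -0.93, SE 0.25, adjusted p = 0.137). DESeq2 called both, with adjusted p of 0.0174 for Ccn3 and 0.0304 for Grp. Of the 5 libraries with high granule markers 4 were from male mice, and without these 5 the difference was -0.53 for Ccn3 (adjusted p = 0.748) and -0.59 for Grp (adjusted p = 1). Trhr, Efnb2 and Dcn had differences of -0.62, -0.28 and -0.85, at unadjusted p of 0.00439, 0.0223 and 0.0473.

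The KO label was also compared with the WT label inside each region, with both sexes averaged. Unadjusted p under 0.05 was counted for the 10 genes only, not over all genes. In the dorsal hippocampus no member was called by edgeR, where 0.655% of all genes were, and 1 had an unadjusted p under 0.05. This was Dsp, at 23.0 ± 12.5 CPM in libraries labelled KO and 41.1 ± 10.9 CPM in libraries labelled WT (log2 change -0.84, SE 0.33, adjusted p = 0.275). Lct followed its direction, with 19.0 ± 10.3 CPM under KO and 30.1 ± 8.40 CPM under WT (-0.68, SE 0.40, adjusted p = 0.471), and without male KO replicate 1 the changes were -0.64 for Dsp and -0.41 for Lct. DESeq2 called no member, while edgeR without the filter on low counts called Lct, Dsp, Nr2f2 and Dcn. In that fit calls over all genes rose as well. The log2 change of Dsp stayed at -0.84 there while its adjusted p went to 3.65e-24, and the cause was not tested. For Trhr, Efnb2, Wfs1, Ccn3 and Grp the log2 change lay between -0.07 and 0.03. That of Ccn3 was -0.24 (SE 0.09, adjusted p = 0.26) without male KO replicate 1.

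In the ventral hippocampus no member was called by edgeR or DESeq2, where 0.0748% of all genes were, and 9 of the 10 were lower in the libraries labelled KO. Trhr averaged 7.43 ± 1.38 CPM under KO and 10.0 ± 2.5 CPM under WT (log2 change -0.42, SE 0.13, unadjusted p = 0.00602, adjusted p = 1). Dcn (-0.74), Gpc3 (-0.57) and Efnb2 (-0.19) also had unadjusted p under 0.05, and the share of all genes under it was not counted. In the medial prefrontal cortex no member was called by either tool, where 0.24% of all genes were. Only Lct reached an unadjusted p of 0.0493, with a log2 change of -0.66 at 7 to 48 counts per library.

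In the cerebellum no member was called by edgeR, where 7.98% of all genes were. Ccn3 came closest, with 7.27 to 36.0 CPM and a median of 15.1 in libraries labelled KO, against 4.07 to 10.9 CPM and a median of 6.87 in libraries labelled WT. Its log2 change was 1.25 (SE 0.39, adjusted p = 0.0627). DESeq2 called it (adjusted p = 0.0097), and without the female KO replicate 2 library, which held the 36.0 CPM, the log2 change was 0.79 (adjusted p = 0.108). The cerebellar granule list ranged from 6.16 to 8.69 in mean log2 level in cerebellar libraries labelled KO and from 4.24 to 8.22 in those labelled WT. Its part in the Ccn3 value was not tested. The hippocampal libraries with high granule markers held 5.055 to 7.826, above the lowest cerebellar library. That rule was not applied to the cerebellum.

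Set against the other regions, the hippocampal levels fell into several orders. Among the 10 genes, 7 differed between dorsal hippocampus and medial prefrontal cortex, where 29.3% of all genes did, and 8 between dorsal hippocampus and cerebellum, where 55.7% did. All 10 differed between ventral hippocampus and medial prefrontal cortex (32.5% of all genes), and 8 between ventral hippocampus and cerebellum (58.8%). These contrasts share libraries, and the cortex and cerebellum were not tested against each other. All cerebellar libraries were kept in them, including the one lowest in granule cell genes.

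Lct and Dsp were both highest in the dorsal hippocampus and next highest in the ventral hippocampus. The median of Lct was 25.5 CPM in the dorsal hippocampus, 4.50 in the ventral hippocampus, 1.21 in the cortex and 0.466 in the cerebellum, with log2 changes of 4.19 (SE 0.36) for dorsal hippocampus over cortex and 1.76 (SE 0.36) for ventral hippocampus over cortex. Dsp had medians of 34.2 and 15.6 CPM in the dorsal and ventral hippocampus, against 1.33 in the cortex and 1.57 in the cerebellum, and neither hippocampal group overlapped with either of those regions. Dsp in the ventral hippocampus was thus below the dorsal level and still 9.86-fold above the cortex. Wfs1 was likewise higher in both hippocampal pieces, with medians of 204 and 205 CPM in dorsal and ventral hippocampus, 139 CPM in the cortex and 65.1 CPM in the cerebellum. Like Dsp, the genes Wfs1, Ccn3, Grp and Efnb2 had no overlap between either hippocampal group and the cerebellum. Efnb2 also had none between dorsal hippocampus and cortex. The share of all genes without overlap was not counted for comparisons with cortex or cerebellum.

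For Nr2f2, Dcn, Grp and Ccn3 the ventral hippocampus stood above all other regions, and each of these differences was called. The medians of Nr2f2 were 18.7 CPM in the dorsal and 41.1 in the ventral hippocampus, 8.70 in the cortex and 10.9 in the cerebellum. Its ventral and cortical libraries did not overlap, and the share of all genes without overlap was not counted there. Dcn had medians of 16.1 CPM in the dorsal and 58.8 CPM in the ventral hippocampus, and its dorsal level was not distinguished from the 15.5 CPM of the cerebellum (log2 change -0.03, 95% interval -0.40 to 0.34). Its cortical median was 6.46 CPM. Grp had medians of 10.7 CPM in the dorsal and 20.1 CPM in the ventral hippocampus, 10.1 CPM in the cortex and 4.39 CPM in the cerebellum, and dorsal hippocampus over cortex gave a log2 change of 0.10 (95% interval -0.18 to 0.38).

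For Ccn3, Trhr, Gpc3 and Efnb2 the dorsal hippocampus was not second. Ccn3 had medians of 99.5 CPM in the dorsal and 225 in the ventral hippocampus, 127 in the cortex and 10.4 in the cerebellum, and dorsal hippocampus and cortex were not told apart (adjusted p = 0.353). Trhr was lowest in the dorsal hippocampus at 3.80 CPM, beside 4.32 in the cortex (adjusted p = 0.202), and its ventral median of 9.00 CPM was not told apart from 7.14 in the cerebellum (adjusted p = 0.0605). Gpc3 had medians of 4.73 CPM in the dorsal and 6.51 in the ventral hippocampus, 3.19 in the cortex and 5.34 in the cerebellum, and neither hippocampal piece was called against the cerebellum (adjusted p = 0.434 for dorsal and 0.081 for ventral). Efnb2 had medians of 64.0 CPM in the dorsal and 78.5 in the ventral hippocampus, 83.4 in the cortex and 24.1 in the cerebellum, and ventral hippocampus over cortex gave a log2 change of -0.19 (adjusted p = 0.00687).

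**Figure D4:**
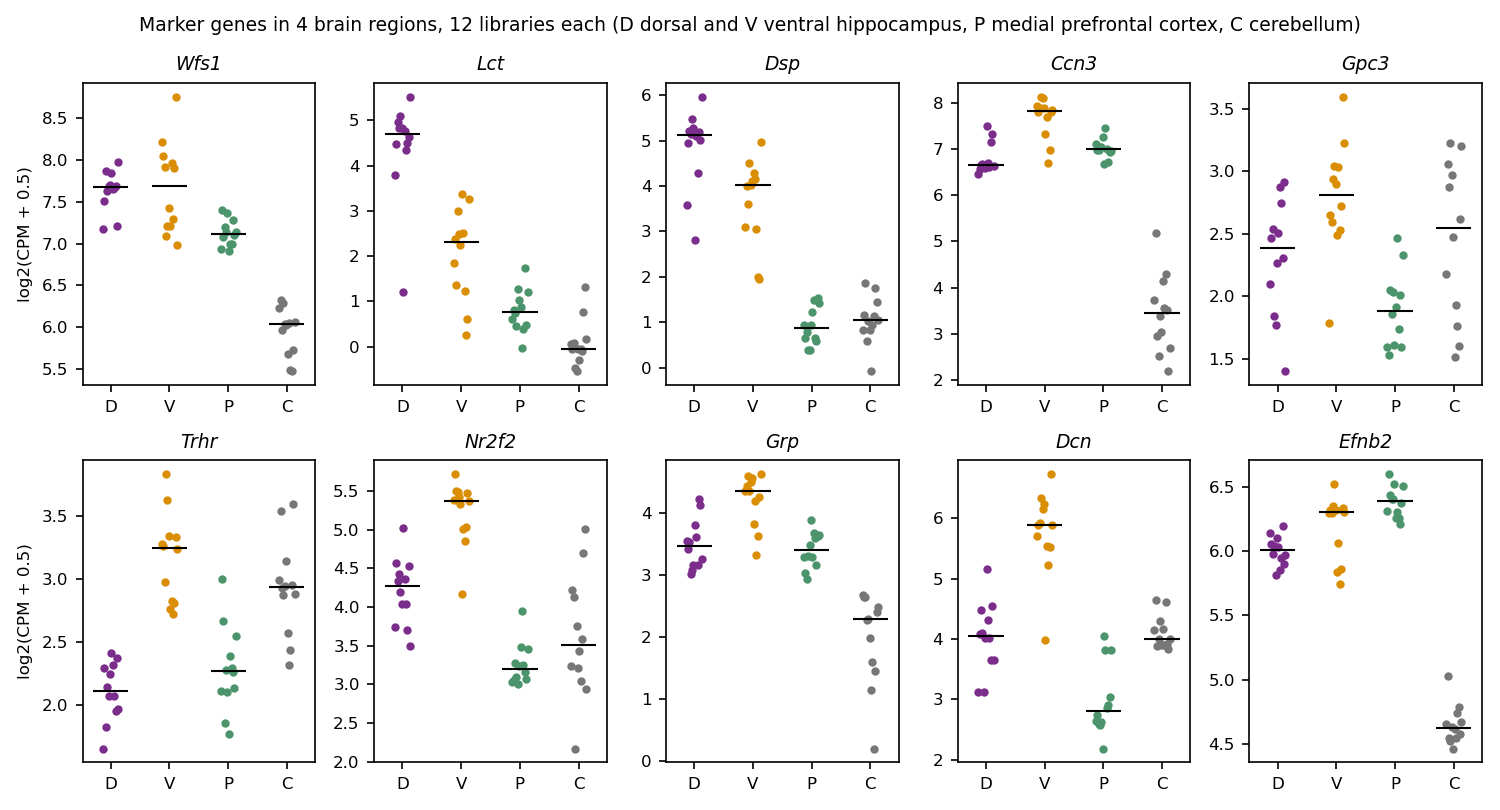
Levels of the 10 genes in dorsal hippocampus (D), ventral hippocampus (V), medial prefrontal cortex (P) and cerebellum (C) as log2(CPM + 0.5), 12 libraries each, with points for libraries and bars at the median. Each panel has its own axis. Lct and Dsp step down through D, V and the other regions, while Trhr is lowest in D and P.

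The genes whose levels followed each member most closely over the 24 hippocampal libraries were named by Pearson's r of log2(CPM + 0.5), taking the 2 highest for each among genes with a mean of at least 50 counts. Lct went with Lrrc10b (0.97) and Dnah9 (0.96), and Dsp with Wipf3 (0.96) and Plekha2 (0.95). Trhr went with Plxnc1 (0.93) and with Dcn (0.91), Nr2f2 with Dcn (0.94) and Nnat (0.93), and Dcn with Nnat (0.96) and Nr2f2. Ccn3 went with Fxyd6 (0.96) and Rgs12 (0.96), and Grp with Rasal1 (0.95) and Crtac1 (0.94). Efnb2 went with Npas2 (0.90) and Lhx6 (0.87), Gpc3 with Tns1 (0.82) and Fgd5 (0.77), and Wfs1 with Adgra3 (0.73) and Cacna2d3 (0.69). These values hold the dorsal-ventral difference itself and describe these libraries only.

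Within groups, with each group's mean removed, several members varied together. After Lct with Dsp, the highest r over 24 libraries were those of Ccn3 with Grp (0.84) and Nr2f2 with Dcn (0.83, and 0.74 without male KO replicate 1). Trhr with Nr2f2 (0.66), Ccn3 with Efnb2 (0.61), Grp with Efnb2 (0.60) and Gpc3 with Grp (0.60) followed. Lct and Dcn, the members with the largest changes in opposite directions, correlated at -0.34 over 24 libraries and at 0.09 without male KO replicate 1. Wfs1 was weakly and negatively related to Lct (-0.32) and Dsp (-0.36).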

How the data were processed

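Polyadenylated RNA was sequenced from 48 libraries, 3 for each region, label and sex. The authors deposited whole-number counts per gene for all libraries in a table that also gives gene positions and lengths; reads were aligned to mm39 with HISAT2 2.0.5, per the submitters' processing notes, which also name DESeq2. The counting tool, its strand setting and the annotation release are not given in the sources used here, so overlapping genes cannot be told apart. Per the labels' protocols RNA was taken from liver lysates, while the tissue labels name brain regions. Nothing in the labels says whether the replicates, or the regions with the same number, came from separate animals, and p-values measure the spread between these libraries.

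From the counts, edgeR 4.0.16 (R 4.3.3) fitted quasi-likelihood models with TMM factors, after filterByExpr (minimum count 10, minimum total 15), with Benjamini-Hochberg adjustment over all genes tested and a threshold of 0.05. The dorsal-ventral contrasts used the 24 hippocampal libraries, each KO and WT comparison the 12 libraries of its region, and the contrasts with cortex and cerebellum all 48. SE is the log2 change divided by the root of F, and 95% intervals use the t quantile at the degrees of freedom of that F test. Levels are CPM with a log offset of 0.5.

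Alternatives were DESeq2 1.42.0, its type of size factors in edgeR, no filter on low counts, a filter of at least 1 CPM in 6 or more libraries, a block for the replicate number, other sets of libraries in the fit, each library left out, and the removal of doubted libraries. All 10 genes are named throughout. Of each list, up to 3 called genes each way with the smallest p are named, and Grpr, Trhde and Lum were added after their values were seen. The 10 genes and the lists were chosen with earlier results of these data known. Promoter sequences came from RefSeq on GRCm38.p6, and their coordinates were not mixed with those on mm39. The result of a list of striatal genes is not reported here.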

Additional observations from a re-analysis of the deposited data

Results flagged for a closer look

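In 80 sets of 6 libraries (each gene in each region and label), 7 had a library whose gap to its nearest neighbour took up more of the range than Dixon's 95% critical value allows, where chance gives about 1 in 20. Male KO replicate 1 held 180 CPM of Ccn3 in the dorsal hippocampus, against 87.7 to 103 CPM in the other libraries labelled KO (gap 0.831 of the range). In the ventral hippocampus, male WT replicate 2 held 433 CPM of Wfs1, next to 239 CPM in the nearest (0.633), and male WT replicate 1 held 32.3 CPM of Nr2f2, next to 40.0 CPM (0.637). Both are libraries with high cerebellar granule markers, and the part of those markers was not tested. In the medial prefrontal cortex, female KO replicate 2 held 169 CPM of Wfs1, next to 135 CPM (0.682). In the cerebellum, male WT replicate 2 held 11.6 CPM of Trhr, next to 8.33 CPM (0.681), female WT replicate 2 held 19.1 CPM of Dcn, next to 15.5 CPM (0.676), and female KO replicate 2 held 32.0 CPM of Efnb2, next to 26.2 CPM (0.633).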

How the results depend on the processing

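Of the 13 counts of members called, those for the dorsal-ventral contrast, for the contrast within the WT label, between the labels, for both labels in ventral hippocampus and cortex, and for the hippocampus against other regions stayed within 1.5 times under every alternative run. Within the KO label the count of 5 became 3 with all 48 libraries in one model (2.59% of all genes) and 1 with the replicate block (0.099% of all genes). It was 1 to 6 with a library left out. It was 1 without the female KO replicate 2 or male KO replicate 2 or 3 dorsal library, or the male KO replicate 2 ventral library. Between the sexes the count of 0 became 2 with DESeq2 and 2 without the filter, and ran from 0 to 2 with a library left out (2 without the male KO replicate 2 or male WT replicate 3 ventral library). For KO against WT, no filter gave 4 calls in the dorsal hippocampus, and in the cerebellum DESeq2, no filter and the 48-library model gave 1 each, with 0 to 2 when a library was left out. For Dsp in the dorsal hippocampus the adjusted p went to 3.65e-24 without the filter, against 0.275 with it. The causes were not tested.

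Over all genes, calls within the KO label were 448, against 837 with DESeq2, 782 without the filter, 18 with the replicate block, 1371 without libraries high in granule markers, 1740 without male KO replicate 1, and 37 to 1001 with a library left out. In the WT label 1462 became 714 with the block and 672 to 1930. Between the sexes 0 became 217 with DESeq2, 445 without the filter, 1 with the block, 118 with 48 libraries and up to 713. For KO against WT, 114 in the dorsal hippocampus became 437, 1107 and 25 with DESeq2, no filter and 48 libraries, and 36 to 191. In the cortex 41 became 193, 562 and 19, and 21 to 244. In the cerebellum 1422 became 3915 with DESeq2, 522 with the block, 6240 with 48 libraries, and 7 to 6400.

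The sign of small changes turned. Without libraries high in granule markers these were Wfs1 dorsal over ventral (0.17), the label difference of Lct (0.0625), the sex difference of Wfs1 (-0.36), and KO against WT of Grp in the dorsal hippocampus (-0.0562). Without male KO replicate 1 they were the label difference of Ccn3 (-0.0084), the sex differences of Lct (-0.35) and Dsp (-0.31) and again Grp (-0.0562). With the replicate block they were Gpc3 within the KO label (0.0165), the sex differences of Wfs1 (-0.0403) and Dsp (-0.26), and Efnb2 KO against WT in the dorsal hippocampus (0.002, and 0.0013 without the filter). With a library left out, Wfs1 ran from -0.16 to 0.0448 dorsal over ventral and from -0.15 to 0.27 within the WT label, Gpc3 from -0.14 to 0.0861 within the KO label, and Ccn3 from -0.0058 to 0.29 between labels. Sex differences ran from -0.22 to 0.22 for Wfs1, -0.77 to 0.55 for Lct, -0.91 to 0.33 for Dsp and -0.25 to 0.15 for Gpc3. KO against WT in the dorsal hippocampus ran from -0.13 to 0.0673 for Wfs1, -0.24 to 0.0101 for Ccn3, -0.14 to 0.0638 for Trhr, -0.10 to 0.11 for Grp and -0.0471 to 0.0432 for Efnb2. In the ventral hippocampus it ran from -0.0165 to 0.42 for Wfs1, -0.38 to 0.97 for Lct and -0.42 to 0.74 for Dsp. In the cortex it ran from -0.0382 to 0.28 for Dsp, -0.0466 to 0.15 for Ccn3, -0.14 to 0.0957 for Gpc3 and -0.0637 to 0.0094 for Efnb2, and in the cerebellum from -0.0559 to 0.11 for Wfs1, -0.32 to 0.0675 for Dsp and -0.38 to 0.045 for Nr2f2. Dcn in dorsal hippocampus over cerebellum ran from -0.13 to 0.0525.

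The labels do not say whether a replicate number marks an animal, and the data did not meet the rule for pairing (every same-numbered pair correlated over 0.1). Same-numbered dorsal and ventral libraries correlated at -0.46 to 0.28 in their deviations, and 4 of 12 pairs were over 0.1. The lowest were the pairs of male KO replicate 1 (-0.455) and male KO replicate 3 (-0.369), which hold libraries that stood apart. Missing the rule therefore does not show that the animals differed. With the replicate block 8 members were called between dorsal and ventral hippocampus, where 13.3% of all genes were, Efnb2 being lost (adjusted p = 0.0904), and 10 in place of 8 between ventral hippocampus and cerebellum, where 59.4% of all genes were. Within the WT label the block lost Efnb2 (0.121) and gained Dsp (0.0275), and Efnb2 was also lost without the female WT replicate 1 or 2 or male WT replicate 2 or 3 dorsal library, or the female WT replicate 2 or male WT replicate 2 or 3 ventral library. Single calls at the threshold also moved. Leaving out 1 of 13 libraries ended the Gpc3 call between dorsal hippocampus and cortex (adjusted p 0.0519 to 0.117). Nr2f2 between dorsal hippocampus and cerebellum was lost with only those regions in the fit (0.0572), and Efnb2 between ventral hippocampus and cortex without libraries high in granule markers (0.0958). Depth limits Lct in the cortex and cerebellum most, at 3 to 48 counts per library.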
